A study of Mus musculus with 8 samples.

Results

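Fibronectin, periostin and 8 other genes of matricellular and matrix-associated secreted proteins were followed in CD45+/Sca1+ cells of mouse bone marrow and muscle. The 10 genes are Fn1, Postn, Tnc, Sparc, Tgfbi, Thbs1, Fstl1, Mfap5, Loxl1 and Serpinf1. Every probe set that the annotation gives to 1 of these symbols and to no other gene was taken, which gave 19 of 22626 probe sets, and 10 of 12393 named genes. A single further probe set lists one of the 10 together with another gene and was left out, and none was found under a synonym only.

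RNA was measured on 8 one-colour arrays in cells sorted for CD45, a surface protein of blood-lineage cells, and for Sca1, which is carried by mouse stem and progenitor cells and by some mature cells. All mice were C57BL/6 and 6 to 8 weeks old, and each of the 4 groups holds 2 arrays. The groups are bone marrow, uninjured muscle, muscle after injury with cardiotoxin (Ctx) in mice without a transplant, and cardiotoxin-injured muscle in mice after bone marrow transplantation (BMT). Cardiotoxin is a membrane-damaging venom peptide that kills muscle fibres and is followed by infiltration and regeneration. The sources used here do not give the time after injury, the transplant protocol or the donor or host origin of the sorted cells. Nothing says that the arrays of a group come from separate mice, so the spread behind each p-value is that between arrays and may be technical. The deposited values are intensities, scaled by the authors so that each array has the same trimmed mean. All tests are from limma, with log2 fold changes given with the standard error (SE) of the fit and p-values adjusted by the Benjamini-Hochberg method over all 16289 probe sets tested. A gene is said to have risen or fallen only where the adjusted p was under 0.05.

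Matricellular proteins are secreted into the extracellular matrix, where they act on cells through integrins and other surface receptors and bind growth factors, and most contribute little to the mechanical framework itself. They are typically sparse in resting adult tissue and are deposited during development and wound repair. Fibronectin is the provisional matrix protein onto which cells and later collagens assemble, and in regenerating muscle fibronectin, periostin and tenascin-C are known from the matrix around the damaged fibres. Fibroblasts are the textbook source of most of these proteins, while macrophages also make fibronectin, TGF-beta-induced protein and thrombospondin 1.

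Promoter sequences are shown for 3 of the genes because their intensities followed contrasting courses over the groups: Postn and Tnc were brightest in untransplanted injured muscle, and Tgfbi stayed bright in the transplanted group. RefSeq windows on GRCm38.p6 were at hand for 6 of the 10 genes (8 windows, each from 250 bases before to 50 bases after an annotated start). The 250 bases before the start are printed 5′ to 3′ on the strand of the gene, with matches to the searched motifs in capitals.
Postn, chr3:54360857-54361106, plus strand: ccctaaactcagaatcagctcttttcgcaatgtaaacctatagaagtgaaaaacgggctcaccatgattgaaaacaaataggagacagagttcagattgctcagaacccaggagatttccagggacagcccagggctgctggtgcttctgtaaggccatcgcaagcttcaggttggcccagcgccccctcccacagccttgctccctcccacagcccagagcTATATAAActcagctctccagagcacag
Tnc, chr4:64046937-64047186, minus strand: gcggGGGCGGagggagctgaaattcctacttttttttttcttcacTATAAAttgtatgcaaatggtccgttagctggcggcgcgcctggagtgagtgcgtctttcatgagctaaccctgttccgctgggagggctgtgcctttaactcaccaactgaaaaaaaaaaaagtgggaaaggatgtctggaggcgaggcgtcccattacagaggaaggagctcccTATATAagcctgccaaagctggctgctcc
Tgfbi, chr13:56609336-56609585, plus strand: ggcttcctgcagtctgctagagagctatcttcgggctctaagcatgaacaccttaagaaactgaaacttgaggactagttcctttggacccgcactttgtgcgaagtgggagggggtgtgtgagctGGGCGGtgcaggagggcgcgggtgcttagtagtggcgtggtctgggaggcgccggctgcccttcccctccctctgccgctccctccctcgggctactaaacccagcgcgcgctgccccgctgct
The motifs searched on both strands were the TATA-type words TATAAA and TATATA, the AP-1 word TGANTCA, the TEAD word CATTCC and the GC box GGGCGG. In the Postn window TATATA began 28 bases and TATAAA 26 bases before the start, and these matches overlap each other. A further Postn window in the table (chr3:54359017-54359316) held no match to any motif. The printed Tnc window held TATATA 29 bases before the start, TATAAA 205 bases before it and GGGCGG 246 bases before it. A further Tnc window (chr4:64046966-64047265) held TATAAA 126 bases and GGGCGG 167 bases before its start and no TATATA. The windows of Postn and Tnc printed here were chosen for their matches. The Tgfbi window held no TATA-type word and 2 GC boxes, one beginning 124 bases before the start and one 15 bases after it, beyond the printed stretch. Of 32817 windows of this length in the table, 13.6% held TATAAA, 5.67% TATATA, 7.81% TGANTCA, 14.7% CATTCC and 35.6% GGGCGG. No window of the 6 genes held TGANTCA or CATTCC. The matches describe letters only.

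The arrays of uninjured cells and those of injured muscle differed in a control of RNA quality. The ratio of the 3' to the 5' control probe set of Gapdh was 10.7 to 46.9 on the 4 arrays without injury (marrow and resting muscle); on the arrays of injured muscle it was 0.808 to 0.882, and every comparison of an injured with an uninjured group below carries that difference. Its part in those comparisons was not tested. The corresponding control ratio of actin also separated resting muscle from marrow. Resting muscle had actin ratios of 19.03 and 10.09, against 5.75 and 5.68 for marrow, and the injured arrays had the lowest (1.185 to 1.227). The comparison of uninjured muscle with marrow below thus carries a difference in the actin control, whose part was not tested either. The comparison of transplanted with untransplanted injured muscle lies wholly within arrays of nearly equal ratio. Array replicates correlated across probe sets at 0.837 in uninjured muscle and at 0.929 to 0.957 in the other groups. In sorted bulk cells, fewer cells of a type and less RNA per cell cannot be told apart. Ptprc, the gene of CD45, had 5008 and 5727 in marrow, 6476 and 4924 in uninjured muscle, 5977 and 6996 in untransplanted, and 6644 and 5204 in transplanted injured muscle, and it passed the test in no comparison. The annotation names no probe set for Ly6a, which encodes Sca1, and its level was not analysed here.

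All 19 probe sets passed the filter on low values, which asks for an intensity of 38.4 or more on 2 arrays or more. In bone marrow 6 of the 10 genes were under that value on both arrays (Postn, Tnc, Sparc, Fstl1, Mfap5 and Loxl1), while in each muscle group every gene reached it on at least 1 array. These 6 genes passed the filter only through the muscle arrays, so their difference from bone marrow is a description of where they were bright. For counts, each gene is represented by its brightest probe set, judged by the mean of all arrays. Where a gene was under 38.4 on both arrays of the lower group, its fold is computed against 38.4 and written "at least". This value comes from the filter; it says nothing about detection.

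**Figure D1:**
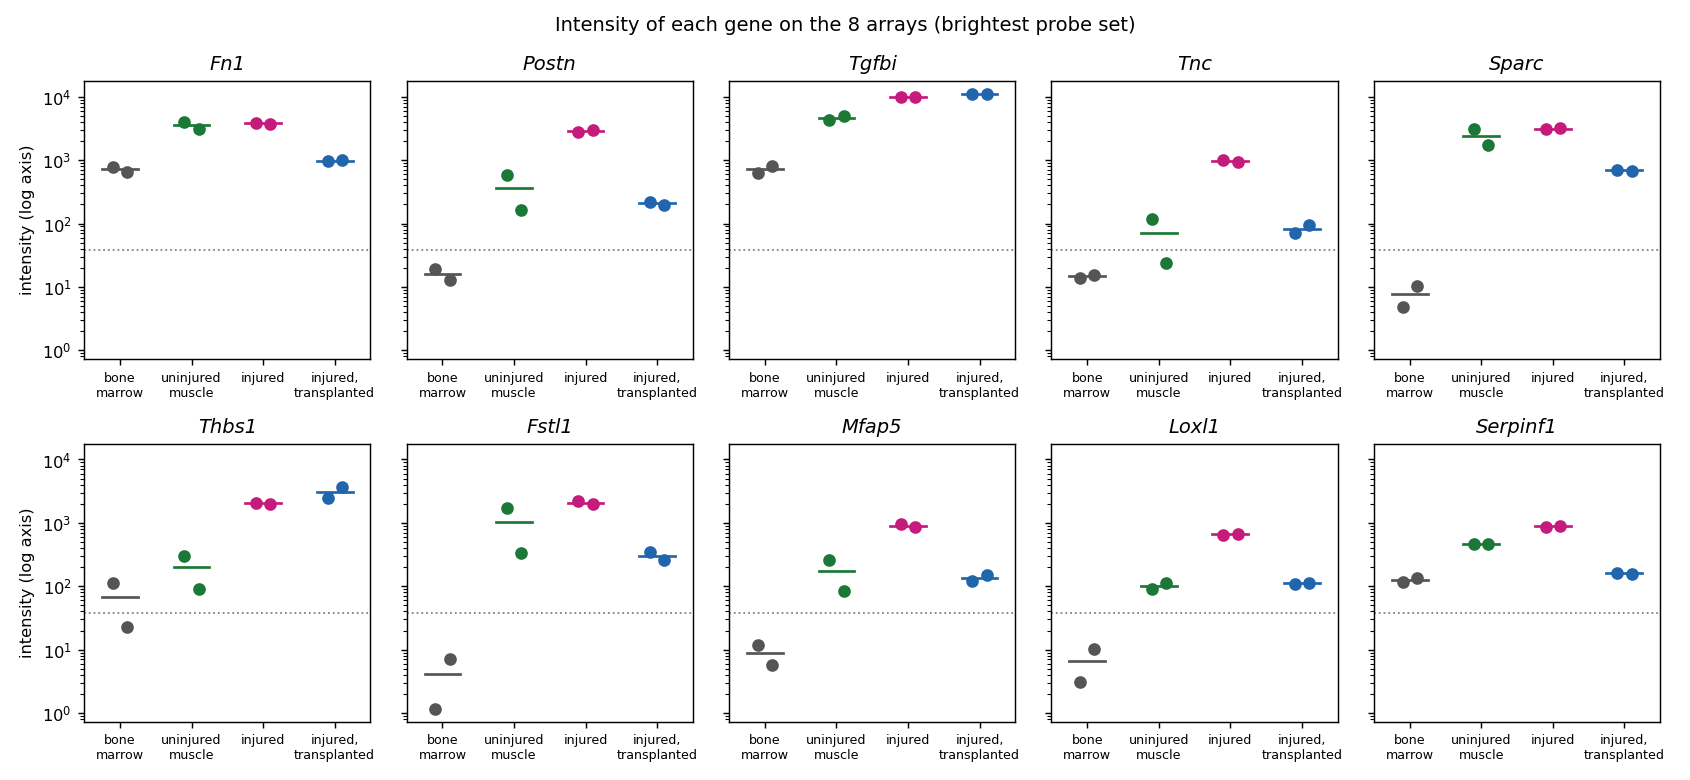
Intensity (log axis) of the 10 genes on each of the 8 arrays, by group, with 1 dot per array for the brightest probe set of each gene; the dotted line is the filter value of 38.4. The bone marrow dots of 6 genes lie below the line, and both transplanted dots lie below both untransplanted injured dots for 8 genes, the exceptions being Tgfbi and Thbs1.

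Which matrix genes the CD45+/Sca1+ cells of resting muscle carried beyond those of marrow was asked first. Of the 10 genes, 8 were higher in uninjured muscle, none was lower, and Tnc and Thbs1 did not pass; 5.85% of the 9506 genes tested were called higher and 1.4% lower. The unadjusted p was under 0.05 for 9 genes, all higher, beside 12.4% of all genes that were higher at that p. Of the 4 genes that reached 38.4 on a marrow array (Fn1, Tgfbi, Thbs1 and Serpinf1), 3 were called higher; for the other 6 the counts and medians against marrow are a description. Over the 10 genes the log2 fold change had a median of 3.02 (2.09 when values below 38.4 are raised to 38.4), against -0.06 over all genes. The count was 5 when only the 4 arrays of these groups were fitted (2.1% of all genes). Without the second uninjured muscle array more probe sets were called higher among all tested, and the count rose too. Fibroblast markers moved with it: 9 of 12 were higher in uninjured muscle and the summed intensity of the list was 2069 to 2918 in bone marrow against 9516 to 34649. Most of the marrow sum came from Thy1 (897.5 and 1773.8) and Cd34 (841 and 533), which were not called higher in uninjured muscle. Other lists were higher too: 8 of 10 macrophage markers (sums of 8133 to 9819 in marrow against 27797 to 34816), 5 of 6 muscle fibre, 4 of 5 smooth muscle (238 to 266 against 6231 to 6592), 4 of 6 endothelial (667 to 673 against 5815 to 10058) and 1 of 5 platelet markers. Their part in the result was not tested.

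Injured muscle of untransplanted mice was compared with uninjured muscle to see what changed after cardiotoxin. Postn, Tnc, Thbs1, Mfap5, Loxl1, Tgfbi and Serpinf1 rose, which is 7 of the 10 genes, and none fell; 8.77% of all genes tested were called higher and 15.1% lower. The unadjusted p was under 0.05 for the same number, 7 higher and 0 lower, beside 14.2% of all genes higher at that p. The median log2 fold change was 2.004 against -0.25 over all genes. Fn1, Sparc and Fstl1 did not pass. The count fell without either untransplanted injured array, and so did the number of probe sets called higher among all tested. In the same comparison 8 of 10 macrophage markers were higher and 1 was lower, with a sum of 27797 to 34816 in uninjured and 76752 to 81121 in injured muscle. Of 12 fibroblast markers 0 were higher and 3 were lower (Pdgfrb, Thy1 and Cd34, named after their values were seen). Thy1 and Cd34 were also bright in marrow. The part of both marker lists in the result was not tested.

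Between the injured groups, transplanted mice had lower intensities of most of these genes. On both transplanted arrays 8 of the 10 genes lay below both untransplanted arrays, from 3.87-fold (Fn1) to 13.7-fold (Postn) lower, while Tgfbi and Thbs1 lay above; of all genes tested, 26.5% lay lower and 25.3% higher in this way. Of the 8, Fn1, Postn and Serpinf1 passed the test in the fit on all 8 arrays, and no gene passed as higher; 0.274% of all genes were called lower and 0.0421% higher. At an unadjusted p under 0.05, 8 genes were lower and 0 higher, beside 7.35% of all genes lower and 2.41% higher at that p. The median log2 fold change of the 10 genes was -2.47, against -0.004 over all genes.

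The number of calls for the transplant comparison depended on the arrays in the fit. With only the 4 injured arrays, which do not include the more scattered uninjured muscle arrays, 8 of the 10 genes were called lower, beside 5.42% of all genes called lower and 2.51% called higher; without either uninjured muscle array the count was 8 as well. It was 0 without either bone marrow array, without any 1 of the 4 injured arrays, with quantile normalisation and with the replicate number as a block. In the 18 settings tried, the log2 fold change of each of the 8 genes stayed below 0. These settings also moved the calls over all 16289 probe sets. They were 4 higher and 37 lower in the fit on all arrays, 2 and 7 with quantile normalisation, 2 and 13 with the replicate block, 2 and 6 without either marrow array, and 27 and 218 or 28 and 240 without the first or the second uninjured muscle array. Without any 1 injured array no probe set at all was called, so the count of 0 there says nothing particular to these genes.

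**Figure D2:**
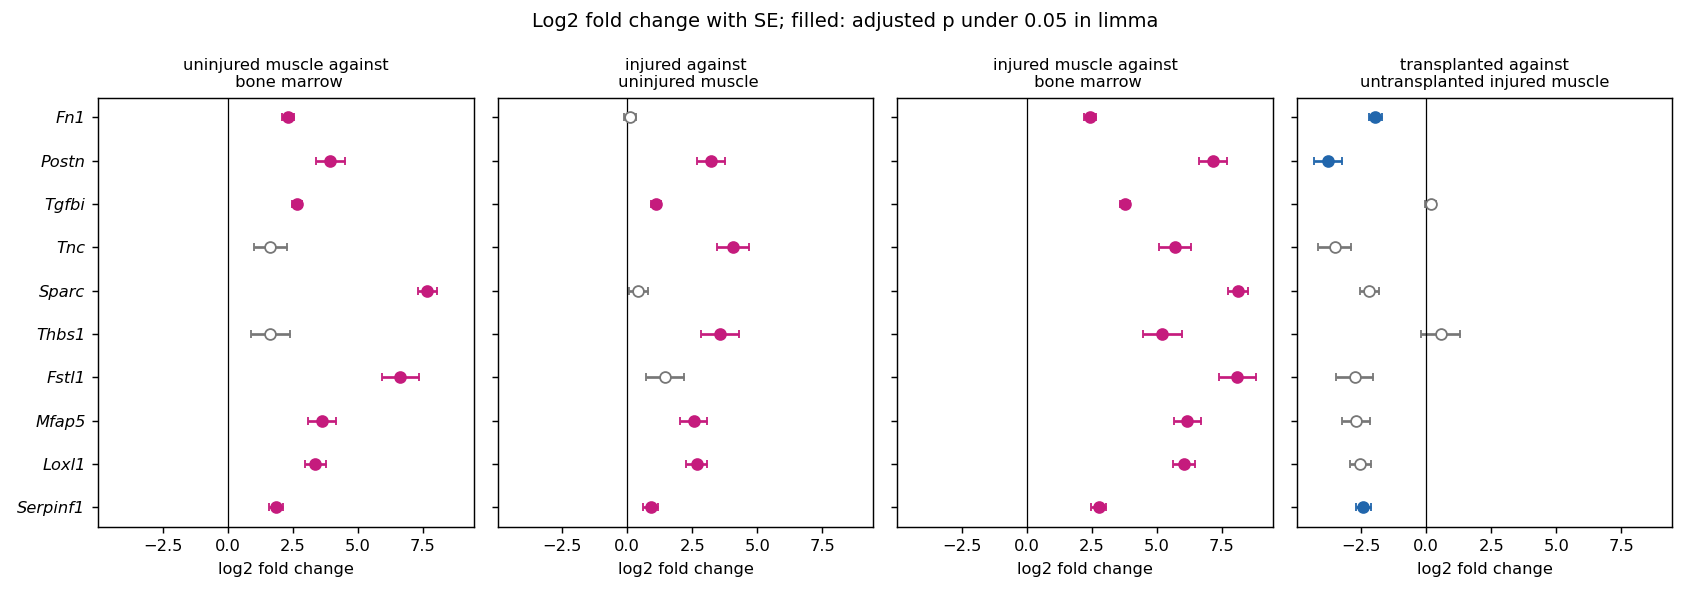
Log2 fold change with its SE from limma (horizontal axis) of the 10 genes in 4 comparisons, from the brightest probe set of each; filled points passed an adjusted p of 0.05 and open points did not. All 10 points lie to the right of 0 for injured muscle against bone marrow, while in transplanted against untransplanted injured muscle 8 lie to the left, 3 of them filled.

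Against bone marrow, untransplanted injured muscle was higher in all 10 genes, beside 12.6% of all genes called higher and 17.2% lower. The median over the 10 log2 fold changes was 5.88 (4.47 when values below 38.4 are raised to 38.4); as 6 of the 10 passed the filter only through muscle arrays, this median and the count are a description. The 4 that reached 38.4 on a marrow array were all called higher. Both remaining comparisons, of the transplanted injured group with uninjured muscle and with bone marrow, were added after the data were seen. Against uninjured muscle, Tgfbi and Thbs1 were higher and Fn1, Sparc and Serpinf1 lower, beside 10.5% of all genes called higher and 20.8% lower. The lower count rose without the second uninjured muscle array and fell without the second transplanted array. The number of probe sets called lower among all tested moved in the same way. Against bone marrow 8 of the 10 were higher, the exceptions being Fn1 and Serpinf1, and none was lower (2 of the 4 that reached 38.4 in marrow), beside 12% of all genes called higher and 19.5% lower. The comparisons share groups of arrays, so their counts are not independent of each other.

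Fn1 encodes fibronectin, the adhesive glycoprotein that cells bind through integrins such as alpha5 beta1. Its brighter probe set 1426642_at had intensities of 780.0 and 646 in marrow, 4060.2 and 3148 in muscle without injury, 3881 and 3777 in untransplanted and 981 and 993 in transplanted injured muscle. Both transplanted arrays thus lay close to marrow and far below the other muscle arrays, which overlapped each other. The log2 fold change of transplanted against untransplanted was -1.95 (SE 0.23, adjusted p = 0.0291). Uninjured muscle was higher than marrow by 2.33 (SE 0.23, adjusted p = 0.00108), and injured against uninjured muscle gave 0.10 (SE 0.23, adjusted p = 0.774). Against marrow the transplanted group gave 0.47 (SE 0.23, adjusted p = 0.154), and against uninjured muscle -1.85 (adjusted p = 0.00146). In the order of means marrow, transplanted, uninjured, untransplanted, the last 2 groups did not differ beyond the sum of their SDs.

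The second Fn1 probe set, 1437218_at, was dim, with 22.1 and 20.8 in marrow, 54.0 and 51.2 in uninjured, 119 and 181 in untransplanted and 65.1 and 35.0 in transplanted injured muscle. It disagreed with the brighter one in injured against uninjured muscle, where it was higher by 1.41 on the log2 scale (SE 0.43, adjusted p = 0.0456). For the transplant comparison it gave -1.54 (SE 0.43, adjusted p = 0.259), in the direction of the brighter probe set.

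Postn encodes periostin, a secreted protein with fasciclin domains that binds integrins and collagen and is a product of activated fibroblasts. Its only probe set gave 19.4 and 13.03 in marrow, 576 and 161 in uninjured muscle, 2823 and 2941 in untransplanted and 215 and 199 in transplanted injured muscle. The untransplanted injured arrays stood above every other array, and both transplanted values fell between the 2 uninjured ones. The rise after injury was 3.22 on the log2 scale (SE 0.55, adjusted p = 0.0059), or 9.32-fold. The transplanted group was lower than the untransplanted one by 13.7-fold (log2 fold change -3.77, SE 0.55, adjusted p = 0.0491). This last call lay at the threshold and was made in 5 of the 18 settings tried. Against bone marrow, untransplanted injured muscle was at least 68.1-fold higher (adjusted p = 0.000132), uninjured muscle at least 7.31-fold (adjusted p = 0.00471) and transplanted injured muscle at least 4.98-fold (adjusted p = 0.00293). Transplanted and uninjured muscle differed by -0.55 (SE 0.55, adjusted p = 0.457), and their means lay within the spread of their arrays.

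Tgfbi encodes TGF-beta-induced protein, a relative of periostin with the same type of domains. Its brightest probe set 1448123_s_at gave 622 and 822 in marrow, 4268 and 4922 in uninjured muscle, 9789 and 9974 in untransplanted and 11031 and 11200.5 in transplanted injured muscle. No 2 groups overlapped, and the order was marrow, uninjured, untransplanted and transplanted injured muscle. It was higher after injury by 1.11 on the log2 scale (SE 0.20, adjusted p = 0.00696), and the transplanted group differed from the untransplanted one by 0.17 (SE 0.20, adjusted p = 0.995). Uninjured muscle exceeded marrow by 2.67 (SE 0.20, adjusted p = 0.000286) and untransplanted injured muscle exceeded it by 3.78 (SE 0.20, adjusted p = 3.4e-05).

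Tgfbi has 3 further probe sets, and all 4 were called higher in uninjured and in untransplanted injured muscle than in marrow. They disagreed on the difference after injury. Probe set 1415871_at had 1312 and 1799 before and 5412 and 5470.5 after injury (log2 fold change 1.82, SE 0.30, adjusted p = 0.00553). Probe set 1456250_x_at had 3147 and 4071 before and 3409 and 3615 after (log2 fold change -0.03, SE 0.28, adjusted p = 0.947), and 1437463_x_at gave 0.72 (SE 0.29, adjusted p = 0.104). None of the 4 passed in the transplant comparison, where their log2 fold changes ran from 0.04 to 0.28. The call for Tgfbi after injury was made in 15 of the 18 settings tried. Quantile normalisation was among those where it was lost (log2 fold change 0.61).

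Tnc encodes tenascin-C, a large hexameric glycoprotein that reappears in healing tissue, injured muscle included. Its only probe set gave 13.8 and 15.6 in marrow, 118 and 24.0 in uninjured muscle, 1006 and 949 in untransplanted and 70.2 and 94.2 in transplanted injured muscle. Only the untransplanted injured arrays were bright, and the uninjured arrays scattered around both transplanted ones. The rise after injury was 4.07 on the log2 scale (SE 0.62, adjusted p = 0.00427), or 16.8-fold, the highest of the brightest probe sets in that comparison. Uninjured muscle against marrow was at least 1.38-fold higher and did not pass (adjusted p = 0.198). The transplanted group lay -3.52 from the untransplanted one (SE 0.62, adjusted p = 0.0764), which did not pass in the fit on all arrays; with the 4 injured arrays alone the adjusted p was 6.1e-06.

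Sparc encodes osteonectin, a collagen-binding and calcium-binding protein that is also stored in platelets. Its brighter probe set 1416589_at gave 4.88 and 10.5 in marrow, 3110.0 and 1737 in uninjured muscle, 3119 and 3164 in untransplanted and 691 and 687 in transplanted injured muscle. Marrow was near the lower end of the scale, the untransplanted arrays lay just above the brighter uninjured one, and both transplanted arrays lay lower. The log2 fold change of injured against uninjured muscle was 0.43 (SE 0.38, adjusted p = 0.416), and transplanted against untransplanted gave -2.18 (SE 0.38, adjusted p = 0.0687). The second probe set, 1448392_at, gave 29.1 and 23.6, 1699 and 1807, 1393 and 1345, and 317 and 260.2 in the same order of groups. It was called lower in the transplanted group (log2 fold change -2.24, SE 0.29, adjusted p = 0.0354), so the size agreed between both probe sets and the call did not. Against uninjured muscle the transplanted group was lower with either probe set (log2 fold changes -1.75 and -2.59, adjusted p = 0.0112 and 0.00103), although the call for the brighter one was lost without either transplanted array. Against marrow, untransplanted injured muscle was at least 74.2-fold higher with the brighter probe set (adjusted p = 2.1e-05).

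Thbs1 encodes thrombospondin 1, a trimeric glycoprotein of platelet granules and of activated macrophages that binds CD36 and CD47 and can activate latent TGF-beta. Its brighter probe set 1460302_at gave 112 and 22.4 in marrow, 305 and 92.1 in uninjured muscle, 2083 and 2015 in untransplanted and 2427 and 3747 in transplanted injured muscle. The 4 injured arrays were all far above the uninjured ones, marrow and uninjured muscle overlapped, and the transplanted arrays lay highest. The rise after injury was 3.58 on the log2 scale (SE 0.74, adjusted p = 0.012), or 11.9-fold, and transplanted against untransplanted gave 0.56 (SE 0.74, adjusted p = 0.999). The second probe set, 1450377_at, gave 31.2 and 27.1, 60.9 and 44.0, 1061 and 1138, and 1481 and 1910.4 in the same order of groups. Its rise after injury was 4.30 (SE 0.32, adjusted p = 0.000519), and its difference between the injured groups was 0.61 (SE 0.32, adjusted p = 0.709).

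Platelet genes were read beside Thbs1 and Sparc because platelets carry both proteins. The summed intensity of 5 platelet markers was 541 to 1080 in bone marrow, 5739 to 8010.5 in uninjured muscle, 8217 to 9857 in untransplanted and 8159 to 9781 in transplanted injured muscle, most of it from Pf4, platelet factor 4. Pf4 had 5447 and 7520 in uninjured muscle and 7821 and 9350 in untransplanted injured muscle. Ppbp also lay higher in untransplanted injured muscle (274 and 309) than in marrow (28.9 and 87.1). Itga2b lay lower there than in marrow (81.0 and 92.7 against 125 and 232), and Gp9 and Gp1bb overlapped their marrow arrays. The sum thus describes mainly Pf4. In injured against uninjured muscle 0 of the 5 were called in limma, and at an unadjusted p under 0.05 it was 1 higher and 1 lower. In the transplant comparison it was 0 of 5, also at an unadjusted p under 0.05. The list sums thus overlapped between both injured groups, and their part in the values of Thbs1 and Sparc was not tested.

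Fstl1 encodes follistatin-like 1, a secreted glycoprotein of the SPARC family that is released by mesenchymal cells and muscle. Its brighter probe set 1416221_at gave 1.15 and 7.05 in marrow, 1701 and 329 in uninjured muscle, 2179 and 1949.9 in untransplanted and 349.6 and 260.3 in transplanted injured muscle. The uninjured arrays stood far apart, one near the untransplanted level and the other near the transplanted one. Neither injured against uninjured muscle (log2 fold change 1.45, SE 0.72, adjusted p = 0.163) nor transplanted against untransplanted injured muscle (-2.76, SE 0.72, adjusted p = 0.217) passed. The second probe set, 1448259_at, had the same split between the uninjured arrays, 1609 and 375, and gave -2.77 (SE 0.64, adjusted p = 0.165) for the latter. Uninjured muscle was at least 17.8-fold (adjusted p = 0.00151) and untransplanted injured muscle at least 48.7-fold higher than marrow (adjusted p = 0.000252) with the brighter probe set.

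Mfap5 encodes microfibril-associated glycoprotein 2, which binds fibrillin microfibrils. Its brighter probe set 1418454_at gave 11.9 and 5.70 in marrow, 261 and 85.0 in uninjured muscle, 953 and 846 in untransplanted and 122 and 151 in transplanted injured muscle. The transplanted values lay between both uninjured ones. It was higher after injury by 2.55 on the log2 scale (SE 0.53, adjusted p = 0.0123), or 5.87-fold, and the transplant comparison gave -2.69 (SE 0.53, adjusted p = 0.11). The second probe set, 1449082_at, did not follow: it had 410.3 and 87.9 in uninjured and 224 and 185 in untransplanted injured muscle (log2 fold change 0.09, SE 0.65, adjusted p = 0.93). The call for Mfap5 after injury was made in 14 of the 18 settings tried. The mean of both probe sets was among those where it was lost (log2 fold change 1.32).

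Loxl1 encodes lysyl oxidase-like 1, an enzyme that crosslinks elastin. Its only probe set gave 3.09 and 10.05 in marrow, 88.9 and 112 in uninjured muscle, 640.5 and 673 in untransplanted and 108 and 113 in transplanted injured muscle. The untransplanted arrays stood apart from all others, and uninjured and transplanted arrays overlapped. It rose after injury by 2.67 on the log2 scale (SE 0.41, adjusted p = 0.00427), or 6.38-fold. The transplanted group lay -2.53 from the untransplanted one (SE 0.41, adjusted p = 0.0649) and 0.14 from uninjured muscle (SE 0.41, adjusted p = 0.804).

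Serpinf1 encodes pigment epithelium-derived factor, a secreted serpin without protease inhibitor activity that acts against new vessel growth. Its brighter probe set 1416168_at gave 117 and 135 in marrow, 462 and 466 in uninjured muscle, 865 and 888 in untransplanted and 165 and 156 in transplanted injured muscle. The replicates were close and no 2 groups overlapped. Transplanted injured muscle was 5.36-fold lower than untransplanted (log2 fold change -2.42, SE 0.29, adjusted p = 0.0291) and also lower than uninjured muscle (log2 fold change -1.51, SE 0.29, adjusted p = 0.00647). The rise after injury, 0.91 (SE 0.29, adjusted p = 0.0489), lay at the threshold and was called in 6 of the 18 alternatives.

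The second Serpinf1 probe set, 1453724_a_at, ordered the groups differently. It gave 8.17 and 20.2 in marrow, 19.2 and 26.2 in uninjured muscle, 604 and 554 in untransplanted and 144 and 128 in transplanted injured muscle. It was at least 13.7-fold higher after injury (adjusted p = 0.00103), and at least 3.30-fold higher in transplanted than in uninjured muscle (adjusted p = 0.00504), where the brighter probe set was lower. For transplanted against untransplanted muscle both had the same sign (-2.06, SE 0.42, adjusted p = 0.125 for the dimmer one).

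**Figure D3:**
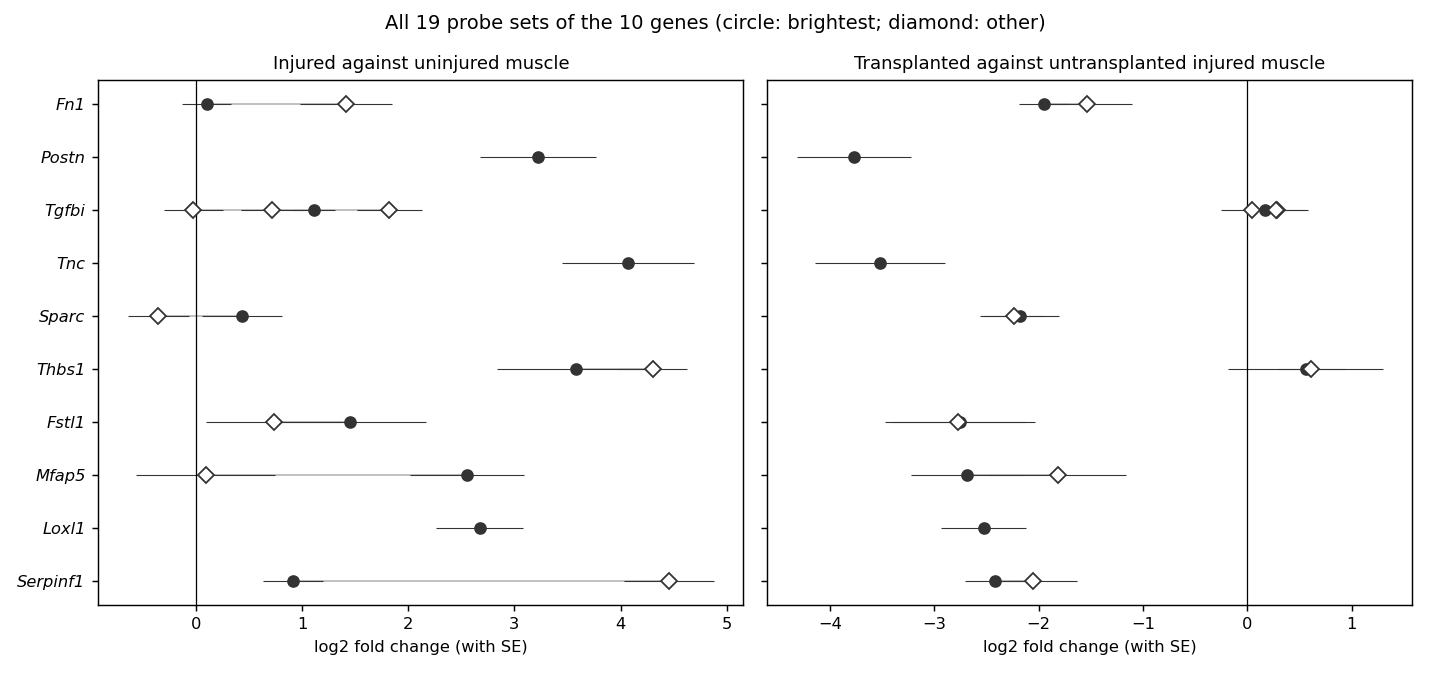
Log2 fold change with its SE from limma of all 19 probe sets of the 10 genes. The panels are injured against uninjured muscle and transplanted against untransplanted injured muscle. Filled circles are the brightest probe set of each gene and open diamonds its other probe sets, whatever the adjusted p. Probe sets of one gene spread after injury (Serpinf1 0.91 and 4.46, Tgfbi -0.03 to 1.82), while in the transplant comparison they kept a common sign.

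Over all 19 probe sets, 13 were called higher in uninjured muscle than in marrow, 11 higher after injury and 4 lower in transplanted than in untransplanted injured muscle, beside 4.83%, 12.1% and 0.227% of all probe sets called in those directions. The 4 lower ones belong to Fn1, Postn, Sparc and Serpinf1. In the transplant comparison 13 of the 19 had non-overlapping lower arrays, beside 26.5% of all genes by their brightest probe set. This share was not computed over all probe sets. The 6 others are those of Tgfbi and Thbs1, all with log2 fold changes above 0.

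The genes most like Fn1 and Postn in their course over the 8 arrays were found by Pearson correlation of log2 values, given as a description since the 8 arrays fall into 4 groups. For Fn1 they were Spats2l (r = 0.993), Cma1 (0.984) and Cxcl14 (0.983). Cma1, the mast cell chymase, had 36.7 and 40.2 in marrow, 2402 and 2258 in uninjured muscle, 1428 and 1333 in untransplanted and 92.0 and 67.1 in transplanted injured muscle. For Postn they were Col5a1 (0.998), Ednrb (0.989) and Rgs10 (0.986). Col5a1, a fibrillar collagen chain, had 39.2 and 37.0, 498 and 209.5, 1504 and 1764, and 263 and 279.8 in the same order of groups. Among the 10 genes, Postn correlated at 0.993 with Mfap5, 0.957 with Loxl1, 0.951 with Tnc and 0.717 with Thbs1, and Fn1 at 0.956 with Serpinf1 and 0.274 with Thbs1.

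Other genes of the same biology were taken from a list of 64, of which 58 have a probe set and 53 were tested. Beside the shares of all genes given above, 5.85% higher in uninjured muscle than in marrow and 8.77% higher and 15.1% lower after injury, 13 were higher in uninjured muscle than in marrow and 0 lower, and 7 were higher and 4 lower after injury. Of the 58, 27 were under 38.4 on both marrow arrays, so the count against marrow is a description. In the list 0 passed in the transplant comparison in limma on all arrays. At an unadjusted p under 0.05, 21 were lower and 1 higher there, beside 7.35% and 2.41% of all genes. With the 4 injured arrays alone 20 were lower and 1 higher, beside 5.42% and 2.51% of all genes.

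Further matricellular and other non-collagen matrix genes (13 tested) were higher in uninjured muscle than in marrow in 8 cases and lower in none. Thbs4, a thrombospondin of muscle and tendon, had 345 ± 134 (SD, n = 2) in uninjured muscle and 2.02 in marrow, at least 7.94-fold higher (adjusted p = 0.000318). Ccn1, a matricellular integrin ligand, had 562 ± 21.2 and was at least 13.4-fold higher (adjusted p = 0.00033). After injury none of the 13 rose and Sparcl1, a relative of Sparc, fell (158 against 707.5, log2 fold change -1.94, adjusted p = 0.0425). At an unadjusted p under 0.05, 3 of the 13 were higher and 2 lower, beside 14.2% of all genes higher and 24.6% lower. The count of 0 called higher differs from the 7 of 10 counted above, a difference that was not tested. In the transplant comparison 0 were called and 12 were lower at an unadjusted p under 0.05, with a median of -2.19 on the log2 scale (-1.34 when values below 38.4 are raised to 38.4).

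Elastic fibre and crosslinking genes (13 tested) gave 2 higher after injury and 1 lower, which was Ltbp4 (41.97 against 202, log2 fold change -1.97, adjusted p = 0.037), named after its value was seen. Ltbp2, a latent TGF-beta binding protein, had 204 against 24.99, at least 4.90-fold higher (adjusted p = 0.0053), and Loxl3, a relative of Loxl1, had 331 against 72.8 (log2 fold change 2.12, adjusted p = 0.00559). Only Fbln5 and Lox were called higher in uninjured muscle than in marrow. The uninjured arrays were far apart for both (661 and 189 for Fbln5, 1203 and 139.8 for Lox). At an unadjusted p under 0.05, 6 of the 13 were higher than in marrow and 0 lower, beside 12.4% of all genes higher. In the transplant comparison 0 were called and 8 were lower at an unadjusted p under 0.05, with a median of -1.44.

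Receptors of these proteins (15 tested) gave 5 higher and 1 lower after injury. Itgb5, an integrin subunit that pairs with alpha v, had 2448 against 432.5 (log2 fold change 3.15, adjusted p = 0.0233), with uninjured arrays of 94.3 and 771. The other 4 that rose, named after their values were seen, were Itga5 and Itgb1, which together form the classic fibronectin receptor, Cd44, a hyaluronan receptor, and Cd47, a thrombospondin receptor. Their log2 fold changes were 3.24 (168.8 against 24.4), 1.38 (861 against 334), 1.08 (4845 against 2398) and 0.83 (4562 against 2580), with adjusted p of 0.0259, 0.0254, 0.039 and 0.03. None of the receptors was called when only the 4 arrays of both groups were fitted. Itgb7, an integrin subunit of lymphocytes and mast cells, fell (313 against 1134, log2 fold change -1.70, adjusted p = 0.0211). Cd36, a thrombospondin receptor, was higher in uninjured muscle than in marrow (1751 against 54.4, log2 fold change 4.89, adjusted p = 0.000286). None of the 15 passed in the transplant comparison, with 1 higher at an unadjusted p under 0.05 (Cd36, 936 in untransplanted and 2192 in transplanted injured muscle, adjusted p = 0.28). The median log2 fold change was 0.02, beside -2.47 for the 10 matrix genes. With the 4 injured arrays alone 1 receptor was called higher and 1 lower, beside 2.51% of all genes higher and 5.42% lower.

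Upstream signals of the TGF-beta and PDGF families (12 tested) gave 0 higher and 1 lower after injury, beside 8.77% of all genes higher and 15.1% lower. The lower one was Smad7, the inhibitory SMAD (89.8 against 371, log2 fold change -1.88, adjusted p = 0.0235). At an unadjusted p under 0.05, 1 was higher and 1 lower, beside 14.2% of all genes higher and 24.6% lower. Tgfb1 was not called, with 4.98 and 345 in uninjured muscle and 1090 and 917 in untransplanted injured muscle. Tgfbr2, the type II receptor, was the only one called in uninjured muscle against marrow (2835 against 1516, log2 fold change 0.90, adjusted p = 0.0437). In the transplant comparison 0 were called and 1 was lower at an unadjusted p under 0.05.

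Markers of the cell types that the sort could hold were read beside these results. In the transplant comparison all 12 fibroblast markers had lower transplanted arrays without overlap, beside 26.5% of all genes. Their median log2 fold change was -1.70, and none passed in the fit on all arrays. At an unadjusted p under 0.05, 8 were lower, beside 7.35% of all genes. With the 4 injured arrays alone 9 were called lower, beside 5.42% of all genes. Their summed intensity was 23037 to 23068 in untransplanted and 4325 to 4684 in transplanted injured muscle. Col3a1, a fibrillar collagen gene on this list, was at least 248-fold higher in untransplanted injured muscle than in marrow and had 1716 and 1939 on the transplanted arrays. No fibroblast marker was under 38.4 on both arrays of a muscle group, and 6 of 12 were in bone marrow. The markers moved with the 8 lower genes, and their part in the result was not tested.

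The sum of the macrophage markers was 76752 to 81121 in untransplanted and 69728 to 75136 in transplanted injured muscle, and 0 of 10 were called, with 3 lower at an unadjusted p under 0.05 and a median log2 fold change of -0.08. On the transplanted arrays 5 lay higher and 5 lower without overlap, beside 25.3% and 26.5% of all genes. At that unadjusted p, 7.35% of all genes were lower. Cd163, a scavenger receptor of resident macrophages, had 553 and 494 in untransplanted and 160.3 and 169 in transplanted injured muscle, and Itgam, an integrin of myeloid cells, had 527 and 655 and then 1148.5 and 1164; both were named after their values were seen. Ms4a7, a macrophage membrane gene, rose after injury (7033 against 1173, log2 fold change 2.58, adjusted p = 0.000811).

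The summed markers of muscle fibres, vessels and smooth muscle were highest in uninjured muscle. The muscle fibre list summed to 106 to 152 in bone marrow, 2969 to 4809 in uninjured, 788 to 874 in untransplanted and 169.6 to 174 in transplanted injured muscle. Tnnc2 and Mylpf, fast fibre genes, were called lower in transplanted than in untransplanted muscle, Tnnc2 by at least 2.65-fold (adjusted p = 0.0291) and Mylpf with a log2 fold change of -2.54 (adjusted p = 0.0325). The endothelial list summed to 5815 to 10058 in uninjured and 713 to 762 on the 4 injured arrays, and the smooth muscle list to 6231 to 6592 in uninjured, 929 to 995 in untransplanted and 360 to 389 in transplanted injured muscle. Their part in the levels of the matrix genes was not tested.

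**Figure D4:**
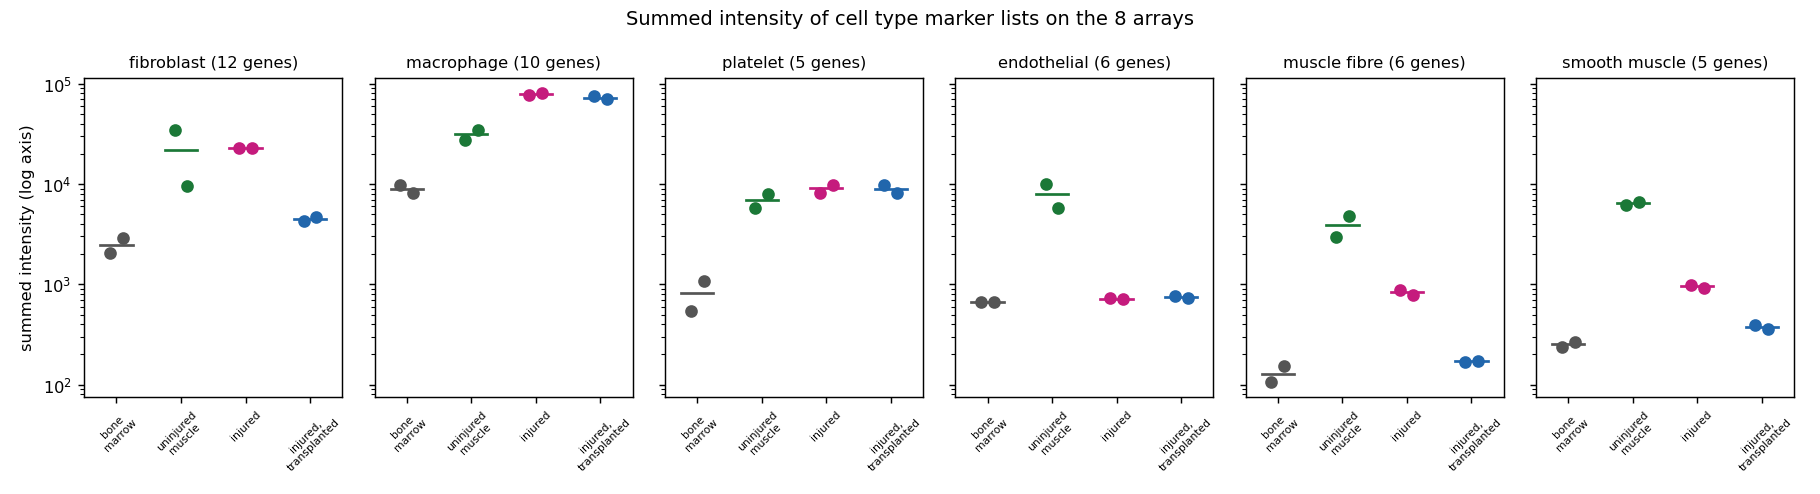
Summed intensity (log axis, shared) of 6 cell type marker lists on each of the 8 arrays, by group, with 1 dot per array. The fibroblast sums of transplanted injured muscle (4325 and 4684) lie below those of untransplanted injured muscle (23037 and 23068), while the platelet sums of these groups overlap and the macrophage sums are 76752 to 81121 and 69728 to 75136.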

How the data were processed

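RNA of CD45+/Sca1+ cells was hybridised to 8 one-colour Affymetrix mouse arrays, 2 per group, from 1 µg of total RNA by one-cycle labelling, per the labels' protocols. The deposited values are linear intensities, 1 per probe set, already scaled by the authors to a trimmed mean of 250.09 to 250.12 (checked). The submitters' processing notes name GCOS, with no version; the sources used here do not give the probe summary or background method. Every column of the deposited table was used.

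After values below 1 were raised to 1, log2(value + 4) was taken, 4 being the 10th percentile; fold changes on this scale understate the change of dim genes. Of 22690 probe sets, 64 controls were left out; 20380 of the rest have 1 gene, 691 several and 1555 none, and 20351 symbols were found in the RefSeq table given. The test took the 16289 probe sets (9506 genes) with 2 arrays or more reaching 38.4, the 40th percentile. limma 3.58.1 under R 4.3.3 was fitted on all 8 arrays with 1 mean per group and an intensity trend (4 residual and a median of 4.07 prior degrees of freedom), two-sided, with Benjamini-Hochberg adjustment, calls being made under 0.05. Precision is limited by the number of arrays (median SE 0.45). The fit was tested on simulated data.

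The 10 genes and the gene lists were chosen with earlier results of these data known, and the promoters and motifs with these results in view. Named besides the 10 are, per list and comparison, at most 2 called genes with the smallest p, and the 3 genes most correlated with Fn1 and with Postn; Ptprc and Ly6a were added as sort markers. Itga5, Itgb1, Cd44, Cd47, Ltbp4, Pdgfrb, Thy1, Cd34, Cd163, Itgam, Pf4, Ppbp, Itga2b, Gp9, Gp1bb, Fabp4, Pecam1 and Tgfb1 were named after their values were seen. So were Cd36 after transplantation, and Fbln5 and Lox where their arrays are compared. Alternatives were quantile normalisation, median centring, other pseudocounts and filters, no trend, the 4 compared arrays alone, the replicate number as a block, the mean of a gene's probe sets, and leaving out each array.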

Additional observations from a re-analysis of the deposited data

How the results depend on the processing

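Of the 10 genes, the number higher in injured muscle than in bone marrow was 10 under all 18 alternatives, a description for the 6 genes that passed the filter only through muscle arrays. For uninjured muscle against bone marrow it was 8, 5 with only the 4 arrays compared, and 7 to 10 on leaving out single arrays. After injury it was 7, and 3 to 7 on leaving out single arrays, the 3 without either untransplanted injured array. For transplanted against untransplanted injured muscle the number lower was 3: it was 5 with the mean of all probe sets, 6 with the pseudocount at the 25th percentile, 8 with only the 4 arrays compared, 1 without an intensity trend, 0 with quantile normalisation and 0 to 8 on leaving out single arrays. There it was 0 without either bone marrow array or any 1 injured array, and 8 without either uninjured muscle array. For transplanted injured against uninjured muscle, added after the data were seen, the number lower was 3, and 1 to 5 on leaving out single arrays. Where an array is left out, the lone array of its group is assumed to vary like the other groups. The number of calls over all probe sets tested moved as well when single arrays were left out. The cause of these changes was not tested. Among called values, the only one that changed sign was Serpinf1 in that comparison with the mean of its probe sets, 0.45 in place of -1.51, as its probe sets differ in sign. With the replicate number as a block, 0 genes were lower in transplanted against untransplanted injured muscle in place of 3, and 8, 6 and 10 were higher in uninjured muscle against marrow, injured against uninjured muscle and injured muscle against marrow. For most pairs of groups the numbers showed no sign of pairing, as differences between replicates correlated at -0.032 to 0.003. For bone marrow with uninjured muscle they correlated at 0.313, and whether the numbers pair those samples was not tested. Centring moved the median of all probe sets tested in transplanted injured against uninjured muscle from -0.193 to -0.087, and quantile normalisation to -0.052. In transplanted injured muscle against bone marrow it moved from -0.185 to -0.05 and -0.093. Among the 10 genes the SE was largest for Thbs1 (0.74) and Fstl1 (0.72).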
